A study of Mus musculus with 29 samples.

Results

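Astrocytes, microglia, oligodendrocyte precursors, newly forming oligodendrocytes, fibroblasts and endothelial cells each have genes that are known to mark them in the mouse brain. The 7 marker genes Slc1a2, Mlc1, Tmem119, Pdgfra, Enpp6, Col1a2 and Kdr were followed here by name, whatever their values, through libraries of sorted neurons, where they serve as a check for RNA of other cells. All 7 had a row among the 9872 genes of the amygdala tables. Of the 6080 genes of the medial prefrontal cortex tables, 1 was a member, Pdgfra, and the other 6 had no row in the tables used here.

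Every group consisted of B6.Cg-Tg(Thy1-YFP)HJrs/J mice and so carried the same yellow fluorescent reporter, which a Thy1 promoter fragment drives in a subset of neurons. Cells labelled as pyramidal neurons were sorted from dissociated tissue punches, and the series is titled for its interest in fear extinction. In each region, mice called Res-T or Sus-T were studied without trauma or with trauma. The amygdala had 3 Res-T and 2 Sus-T libraries without trauma, and 4 Res-T and 4 Sus-T libraries with trauma. The medial prefrontal cortex had 4 Res-T and 2 Sus-T libraries without trauma, and 3 Res-T and 4 Sus-T libraries with trauma. The labels do not give the ages of the mice, what the trauma was, or whether libraries came from separate animals. As the design text speaks of 9 amygdala mice and there were 13 amygdala libraries, some may share an animal, and the p-values measure only the spread between these libraries.

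The values are the authors' deposited signal, in an arbitrary unit whose normalization is not given in the sources used here. They were compared between libraries of 1 region on the assumption of a common scale, and each region was fitted apart. Amygdala libraries had totals of this signal between 3267967 and 4021272, and cortical libraries between 2095138 and 2444486. The read depth behind them is unknown. The labelled cell type was checked against its markers. Of 20 pyramidal neuron genes, 6 had a row in the amygdala (Camk2a, Camk2n1, Nrgn, Chn1, Cux2 and Rorb) and 1 in the cortex (Rorb). Slc17a7, Neurod2, Neurod6, Tbr1 and Thy1 had no row in either. How rows were chosen is not given, so a missing row does not show a low value. Slc1a2, for example, was among the most abundant genes of every amygdala library and had no row in the cortex. The 6 pyramidal neuron genes summed to between 0.0202% and 0.26% of an amygdala library. Of 20 GABAergic interneuron genes, 5 had a row in the amygdala and 3 in the cortex. In Res-T without trauma those 5 summed to 0.0350% to 0.0415% of an amygdala library, above the pyramidal neuron genes at 0.0202% to 0.0259%. In the other amygdala groups their sum was below that of the pyramidal neuron genes. In contrast, 28 genes of myelinating oligodendrocytes summed to between 2.41% and 8.63%. In the cortex, 19 such myelin genes summed to between 2.95% and 9.99% of a library. In bulk libraries, fewer cells of a type and less RNA per cell of that type cannot be told apart.

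As background, astrocytes take up released glutamate and line blood vessels, and microglia are the resident immune cells of the brain. Oligodendrocyte precursors divide in response to platelet-derived growth factor, pass through a newly formed stage and then wrap axons in myelin. Endothelial cells form the capillary wall and respond to vascular endothelial growth factor, while fibroblasts of larger vessels and the meninges make fibrillar collagen.

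Pdgfra and Kdr were picked because both lie on chromosome 5 and their levels differed in opposite directions without trauma. Enpp6 was picked because it had the smallest p-value of the members. These genes are shown by the 250 bases before their RefSeq transcript starts (GRCm38.p6). Each is written 5′ to 3′ on the strand of its gene. Capitals mark matches, on either strand, to the GC box GGGCGG or to the SOX-type motif ACAATG.
Pdgfra, chr5:75152001-75152250, plus strand: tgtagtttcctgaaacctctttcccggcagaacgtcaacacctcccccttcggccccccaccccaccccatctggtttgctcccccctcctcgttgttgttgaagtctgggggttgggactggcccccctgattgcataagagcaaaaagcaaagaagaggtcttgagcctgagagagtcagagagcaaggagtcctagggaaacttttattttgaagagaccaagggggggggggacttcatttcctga
Enpp6, chr8:46986637-46986886, plus strand: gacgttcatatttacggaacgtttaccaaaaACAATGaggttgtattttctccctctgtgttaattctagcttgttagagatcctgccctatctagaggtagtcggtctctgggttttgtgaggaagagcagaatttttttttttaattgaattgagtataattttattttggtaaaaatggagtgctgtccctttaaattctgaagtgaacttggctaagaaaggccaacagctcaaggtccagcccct
Kdr, chr5:75978456-75978705, minus strand: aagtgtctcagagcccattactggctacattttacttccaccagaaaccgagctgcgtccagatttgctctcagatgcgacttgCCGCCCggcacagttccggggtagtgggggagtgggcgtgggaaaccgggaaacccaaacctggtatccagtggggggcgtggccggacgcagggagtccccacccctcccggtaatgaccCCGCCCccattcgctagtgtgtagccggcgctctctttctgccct

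The Kdr window held 2 GC boxes, 16 CpG pairs and 61.6% G or C, and its last 3 bases lie in the annotated first exon. The Enpp6 window held 1 SOX-type match, 4 CpG pairs and 38.4% G or C. The Pdgfra window held 4 CpG pairs, 54.4% G or C and no match to either motif. Over all 32851 RefSeq windows of this length, 32.7% held the GC box and 10.7% the SOX-type motif, and the medians were 6 CpG pairs and 52.4% G or C. These matches describe the letters only. Of the 7 genes, 6 had an entry in the promoter table, and Tmem119 had none.

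Slc1a2 (ENSMUSG00000005089.15, chr2:102658659-102790784, plus strand, GRCm38, GENCODE M21) encodes the main glutamate transporter of astrocytes, and its transcript is also known at a low level in some excitatory neurons. In the amygdala it read 7089, 6109 and 10326 in Res-T without trauma (7841 ± 2207, SD, n = 3). It read 23374 and 45468 in Sus-T without trauma (34421 ± 15623, SD, n = 2). With trauma it read 16447, 4797, 12260 and 14316 in Res-T (11955 ± 5069, SD, n = 4) and 45198, 18677, 31890 and 16546 in Sus-T (28078 ± 13279, SD, n = 4). The Sus-T libraries were above the Res-T libraries without overlap under both conditions, although the lowest Sus-T library with trauma was only just above the highest Res-T one. In either direction, 58.9% of all genes did not overlap between these groups without trauma, and 5.75% with trauma. Slc1a2 was among the most abundant transcripts of every amygdala library, between the 97.5th and the 99.9th percentile of genes when values were divided by exon length. Whether the deposited values were already corrected for length is not given, and the division assumes that they were not.

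Mlc1 (ENSMUSG00000035805.13, chr15:88955884-88979007, minus strand) encodes a membrane protein of astrocyte endfeet. Its values in Res-T without trauma were 132, 193 and 161 (162 ± 30.7, SD, n = 3), and in Sus-T without trauma 439 and 744 (591 ± 216, SD, n = 2). With trauma, Res-T libraries read 362, 270, 288 and 314 (308 ± 40.1, SD, n = 4), and Sus-T libraries 736, 488, 673 and 363 (565 ± 171, SD, n = 4). The order was the same as for Slc1a2, with Res-T without trauma lowest. Here the Res-T libraries with trauma also lay wholly above those without, as was so for 9.68% of all genes. The gap between the highest Res-T library with trauma, at 361.9, and the lowest Sus-T one, at 363.1, was very small.

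Tmem119 (ENSMUSG00000054675.5, chr5:113793729-113800516, minus strand) encodes a membrane protein that marks resident microglia. It read 33.5, 39.9 and 43.6 in Res-T without trauma (39.0 ± 5.13, SD, n = 3) and 263 and 156 in Sus-T without trauma (210 ± 75.6, SD, n = 2). Under trauma the values were 34.4, 106, 83.8 and 37.8 in Res-T (65.5 ± 35.2, SD, n = 4) and 31.2, 231, 167 and 85.5 in Sus-T (129 ± 88.0, SD, n = 4). The groups without trauma did not overlap, as was so for 58.9% of all genes. With trauma they overlapped, and the single lowest library of all 13 was Sus-T with trauma replicate 1.

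Pdgfra (ENSMUSG00000029231.15, chr5:75152292-75198215, plus strand) encodes the alpha receptor for platelet-derived growth factor, which marks oligodendrocyte precursors and also some fibroblasts. In the amygdala it read 367, 388 and 225 in Res-T without trauma (327 ± 88.6, SD, n = 3) and 744 and 1685 in Sus-T without trauma (1215 ± 665, SD, n = 2). With trauma it read 677, 613, 864 and 426 in Res-T (645 ± 181, SD, n = 4) and 1051, 1500, 663 and 1073 in Sus-T (1072 ± 342, SD, n = 4). Res-T without trauma was again the lowest group and did not overlap with any other, while the 2 groups with trauma overlapped. Of all genes, 58.9% did not overlap between Res-T and Sus-T without trauma. Between Res-T without trauma and the groups with trauma the share was 23.1% for Res-T and 36.2% for Sus-T.

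Enpp6 (ENSMUSG00000038173.15, chr8:46986887-47096762, plus strand) encodes a choline phosphodiesterase that marks newly forming oligodendrocytes. It read 958, 1575 and 918 in Res-T without trauma (1150 ± 369, SD, n = 3) and 93.9 and 231 in Sus-T without trauma (163 ± 97.0, SD, n = 2). Libraries with trauma read 651, 389, 488 and 511 in Res-T (509.9 ± 108, SD, n = 4) and 527, 486, 318 and 388 in Sus-T (429.7 ± 94.3, SD, n = 4). The order was turned round relative to Pdgfra: Res-T without trauma was highest, Sus-T without trauma lowest, and both groups with trauma lay between them and overlapped each other. Of all genes, 58.9% did not overlap between the groups without trauma. Against Res-T and Sus-T with trauma, the shares were 23.1% and 36.2% for Res-T without trauma, and 28.4% and 20.4% for Sus-T without trauma. The share of genes with the whole order was not computed.

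Col1a2 (ENSMUSG00000029661.16, chr6:4504814-4541544, plus strand) encodes the alpha-2 chain of type I collagen, made by fibroblasts. It read 14.0, 18.1 and 12.1 in Res-T without trauma (14.7 ± 3.09, SD, n = 3) and 176 and 78.8 in Sus-T without trauma (128 ± 69.0, SD, n = 2). Those Res-T values stood at percentiles 4.33 to 8.10 of genes, so the difference without trauma rests on low values. Libraries with trauma read 22.8, 28.4, 92.8 and 40.8 in Res-T (46.2 ± 32.0, SD, n = 4) and 28.3, 81.1, 32.6 and 60.0 in Sus-T (50.5 ± 24.8, SD, n = 4). All 4 Res-T libraries with trauma were above the 3 without, as was so for 9.68% of all genes. The groups with trauma covered nearly the same range.

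Kdr (ENSMUSG00000062960.10, chr5:75932827-75978458, minus strand) encodes the main receptor for vascular endothelial growth factor on endothelial cells, and 735 kb lie between its gene and that of Pdgfra. It read 82.8, 62.8 and 86.9 in Res-T without trauma (77.5 ± 12.9, SD, n = 3) and 4.38 and 20.2 in Sus-T without trauma (12.3 ± 11.2, SD, n = 2). Under trauma the values were 59.0, 115, 31.0 and 30.3 in Res-T (58.9 ± 39.9, SD, n = 4) and 57.3, 60.8, 52.8 and 19.3 in Sus-T (47.5 ± 19.1, SD, n = 4). The low value of Sus-T without trauma replicate 1 gave Kdr the widest span of the 7 genes, with its highest library 26.3 times its lowest. In the 2 Sus-T libraries without trauma Kdr stood at percentiles 2.80 and 9.51 of genes, so its difference there rests on low values.

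**Figure D1:**
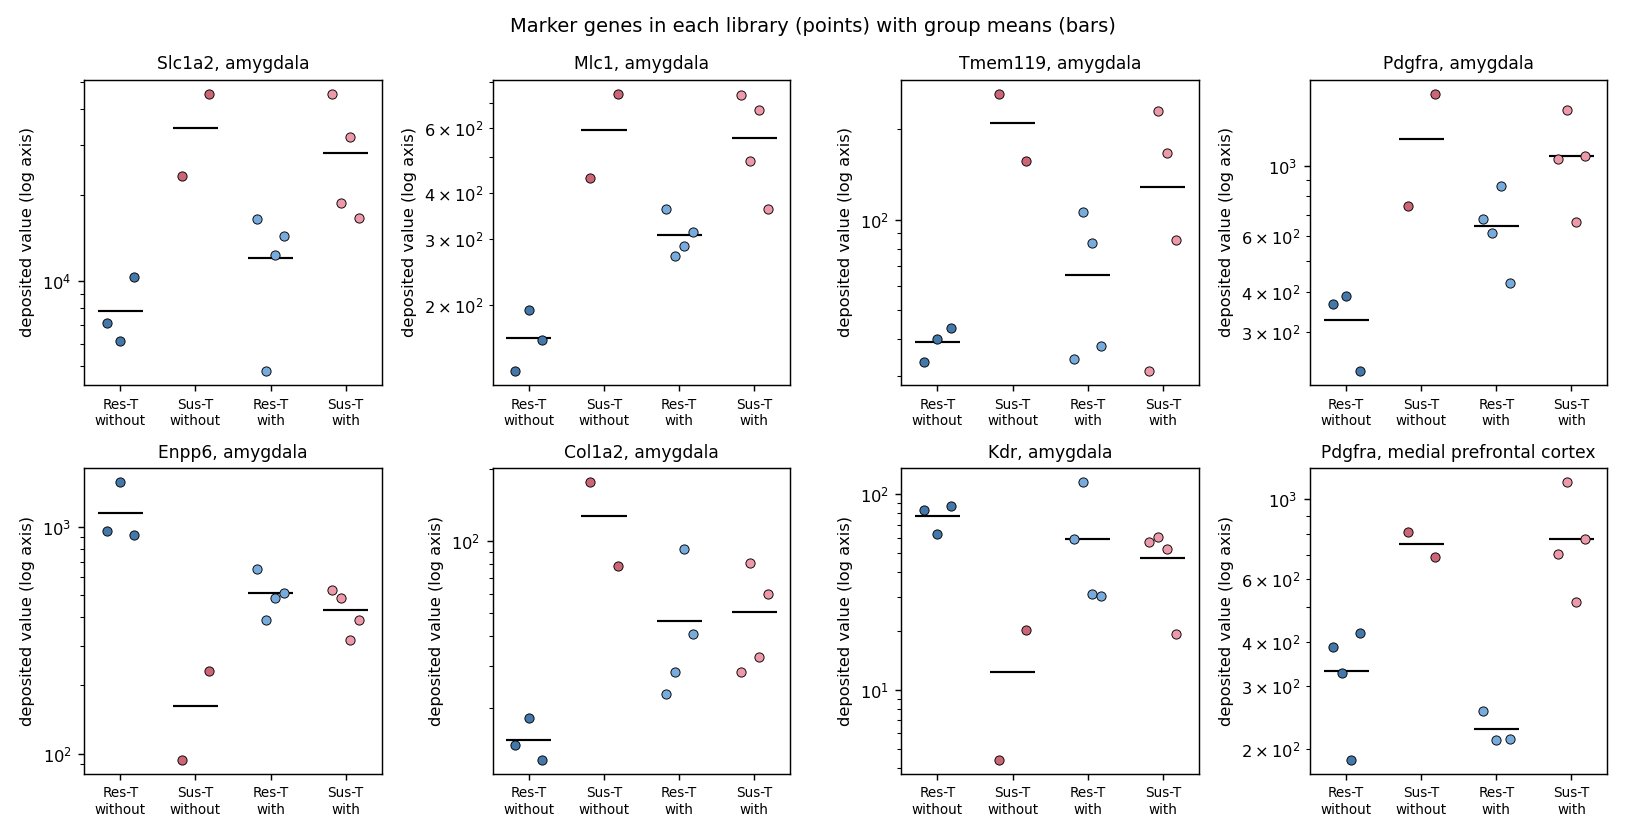
Deposited values of the 7 marker genes in each amygdala library, and of Pdgfra in each medial prefrontal cortex library, on logarithmic axes (arbitrary signal units); each point is a library and each bar the group mean. Without trauma the Sus-T points lie above the Res-T points for Slc1a2, Mlc1, Tmem119, Pdgfra and Col1a2 and below them for Enpp6 and Kdr, and with trauma the groups overlap for all but Slc1a2 and Mlc1 in the amygdala.

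Per kilobase of exon, on the same assumption that the deposited values were not already corrected for length, the order of the 7 genes was not the same in every library. Slc1a2 was highest throughout, from 365 to 3462 per kb. Mlc1 ran from 47.2 to 266 per kb and Pdgfra from 22.5 to 168 per kb. Enpp6 covered 14.7 to 246 per kb and Tmem119 covered 13.5 to 114 per kb, so these 4 ranges overlapped widely. Col1a2, from 0.974 to 14.2 per kb, and Kdr, from 0.485 to 12.8 per kb, were the lowest, and the highest that either reached was percentile 26.1 of genes per kb. The spans of genes on the opposite strand overlap those of Slc1a2 (Gm13872), Enpp6 (Gm45600 and 4930579M01Rik) and Pdgfra (Gm42802 and Gm42803). On the same strand, Gm43921 overlaps Col1a2 and Mir7025 overlaps Pdgfra. Whether their exons overlap was not checked, and whether the quantification used strand is not given in the sources used here. Reads of such pairs may therefore not be separated.

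The first comparison took the libraries labelled as without trauma and asked whether these marker genes differed between Sus-T and Res-T. In the amygdala without trauma, all 7 passed the threshold, an adjusted p of 0.05 in limma after Benjamini-Hochberg adjustment over all 9872 genes, where 27.4% of all genes were called. Higher in Sus-T were Slc1a2, Mlc1, Tmem119, Pdgfra and Col1a2, in a direction in which 12.4% of all genes were called. Lower were Enpp6 and Kdr, a direction that took 15% of all genes. Scaling libraries to equal totals turned this split round, to 1699 genes higher and 1062 lower against 1223 and 1483 as deposited, and left the 7 calls and their directions in place. The members and this comparison were chosen with its earlier results known, so this count is a description and no independent evidence.

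The size of the difference without trauma was given on the log2(value + 1) scale. Enpp6 differed by -2.91 ± 0.34 (SE), limma adjusted p = 2.5e-05, and stood 48th of all genes by p. Mlc1 had the smallest error of the genes that were higher, 1.83 ± 0.30 (SE), with a limma adjusted p of 0.000259. Tmem119 had the weakest support, 2.36 ± 0.65 (SE), limma adjusted p = 0.0122. All 7 did not overlap between these groups of 3 and 2 libraries, but neither did 58.9% of all genes.

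With only 2 Sus-T libraries without trauma, each of them decided some calls. Without replicate 1, which had the higher Tmem119 and Col1a2 and the lower Enpp6 and Kdr, Tmem119 (limma adjusted p = 0.122) and Kdr (0.0909) were no longer called. Without replicate 3, which had the higher Slc1a2, Mlc1 and Pdgfra, Slc1a2 (limma adjusted p = 0.0903) and Pdgfra (0.0502) were no longer called. Mlc1, Enpp6 and Col1a2 were called in both of these fits. The other genes of the microglia list did not share the order of Tmem119, as they summed to 0.0405% of the library in replicate 1 and to 0.0587% in replicate 3.

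The second comparison placed Sus-T against Res-T mice with trauma in the amygdala. None of the 7 genes was called by limma, and none of the 9872 genes was (0%), although 1142 genes had an unadjusted p under 0.05. Slc1a2 differed by 1.25 ± 0.38 (SE, limma adjusted p = 0.219), Mlc1 by 0.83 ± 0.23 (0.165) and Pdgfra by 0.72 ± 0.29 (0.343), each with an unadjusted p under 0.05. Their 95% intervals, 0.43 to 2.07, 0.34 to 1.31 and 0.11 to 1.33, were all above 0. The groups did not overlap for Slc1a2 and Mlc1, a pattern found in 5.75% of all genes.

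For the other 4 genes the interval of the difference with trauma included 0, so none was detectable among these libraries. Tmem119 differed by 0.78 (95% interval -0.28 to 1.84), Col1a2 by 0.21 (-0.76 to 1.19), Enpp6 by -0.25 (-0.80 to 0.30) and Kdr by -0.21 (-1.28 to 0.86). None of these 4 intervals reached the difference estimated without trauma, and the 2 estimates share no library. That difference has an error of its own, which this leaves out. The direct test, given as the fifth comparison, was called for Enpp6 and Col1a2. It was not called for Tmem119 (limma adjusted p = 0.257) or Kdr (0.0617).

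The third comparison set Res-T mice with trauma against Res-T mice without, and it shares the Res-T libraries without trauma with the first. Mlc1 rose by 0.93 ± 0.25 (SE, limma adjusted p = 0.0331) and Enpp6 fell by 1.15 ± 0.28 (SE, limma adjusted p = 0.0245), so 2 of 7 genes were called where 6.18% of all genes were, 3.3% upward and 2.88% downward. With quantile normalization the upward and downward counts over all genes went from 326 and 284 to 354 and 146, and with equal totals to 588 and 151, where Pdgfra was called too. Pdgfra differed by 0.97 ± 0.31 (limma adjusted p = 0.0683) and Col1a2 by 1.39 ± 0.50 (0.102), and neither was called. Slc1a2 (0.50), Tmem119 (0.58) and Kdr (-0.60) had limma adjusted p-values above 0.5. The groups did not overlap for Mlc1, Pdgfra, Enpp6 and Col1a2, as for 23.1% of all genes.

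These calls were not stable to the loss of 1 library. Mlc1 kept its call without Res-T with trauma replicate 2 alone, and across the 7 fits that left out a library its limma adjusted p ran from 0.0361 to 0.155. For Enpp6 it ran from 0.0281 to 0.138. No member was called without any 1 of the 3 Res-T libraries without trauma, or without Res-T with trauma replicate 3.

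The fourth comparison set Sus-T mice with trauma against Sus-T mice without. No member was called by limma, nor were more than 3 genes (0.0304%, of which 0.0101% downward), while 1168 genes had an unadjusted p under 0.05. Enpp6 differed by 1.51 ± 0.32 (SE, limma adjusted p = 0.0587), Kdr by 2.06 ± 0.62 (0.158) and Col1a2 by -1.34 ± 0.57 (0.356). Enpp6 did not overlap between the groups, as was so for 20.4% of all genes. Without Sus-T without trauma replicate 3, Enpp6 (limma adjusted p = 0.00266) and Kdr (0.0277) were called. Slc1a2 (-0.34 ± 0.47), Mlc1 (-0.07 ± 0.28) and Pdgfra (-0.12 ± 0.35) differed by less than their standard errors.

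The fifth comparison tested whether the trauma difference itself was unlike in Sus-T and Res-T mice. It was for Enpp6, with trauma differences of -1.15 in Res-T and 1.51 in Sus-T, which differed by 2.66 ± 0.43 (SE, limma adjusted p = 0.00334). It was also for Col1a2, in the opposite sense, by -2.72 ± 0.75 (SE, limma adjusted p = 0.0396). Those 2 of 7 genes were called where 6.74% of all genes were, 4.76% upward and 1.98% downward. The upward and downward counts over all genes went from 470 and 195 to 344 and 251 with quantile normalization and to 294 and 443 with equal totals, while both members kept their calls, joined by Slc1a2 in the first case and Mlc1 in the second. Kdr (2.65 ± 0.83, limma adjusted p = 0.0617), Mlc1 (-1.0 ± 0.38, 0.114), Pdgfra (-1.10 ± 0.47, 0.168), Tmem119 (-1.58 ± 0.82, 0.257) and Slc1a2 (-0.84 ± 0.63, 0.456) were not. Enpp6 was called in each of the 13 fits that left out a library. Col1a2 was called in 5 of them and lost in the other 8, with a limma adjusted p of up to 0.219, reached without Sus-T without trauma replicate 1. The test draws on the same Sus-T and Res-T libraries without trauma as the first comparison.

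**Figure D2:**
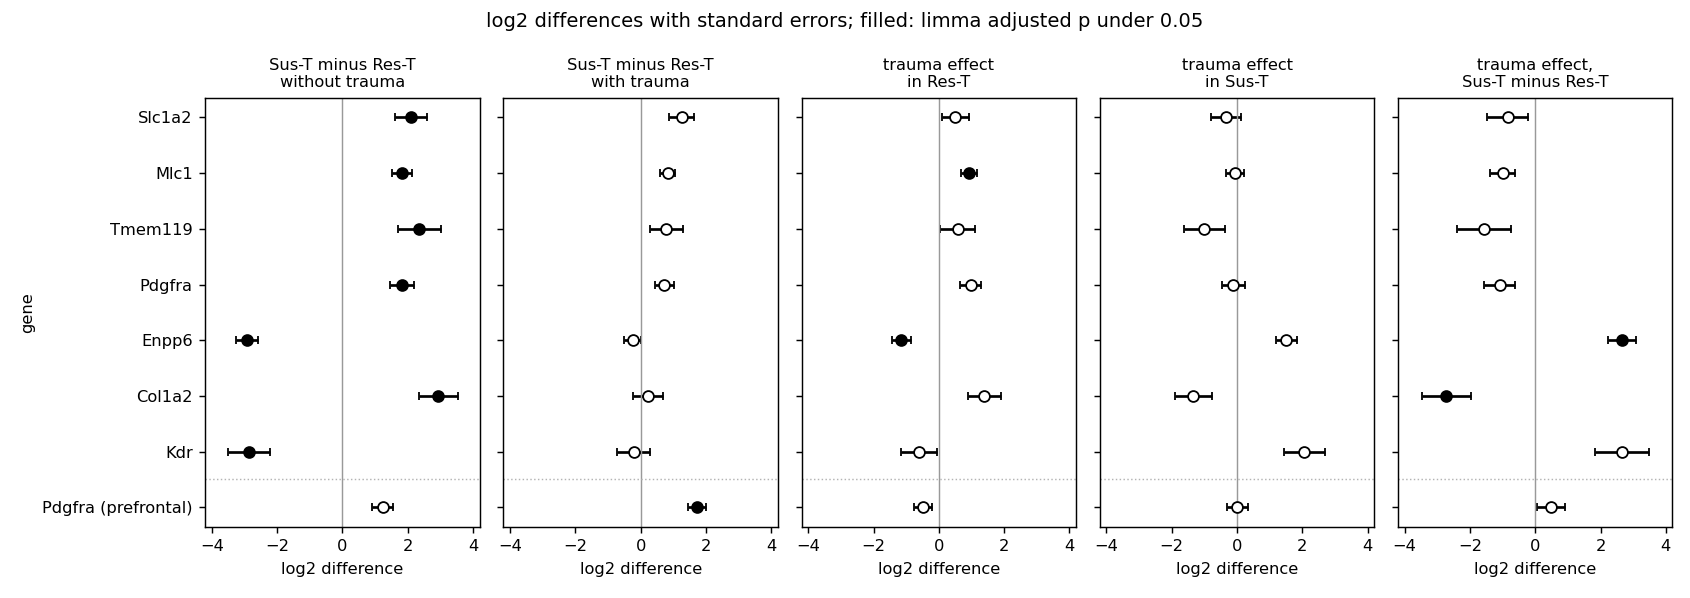
Log2 differences (points) with standard errors (bars) of the 7 genes in the amygdala and of Pdgfra in the medial prefrontal cortex, for the 5 comparisons; filled points passed a limma adjusted p of 0.05. All 7 amygdala points are filled without trauma and none with trauma, and the amygdala differences of Enpp6 and Kdr have the opposite sign to those of the other 5 genes in each of the 5 panels, which share libraries.

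Pdgfra was the single member that could be followed in the medial prefrontal cortex. There it read 387, 326, 187 and 423 in Res-T without trauma (331 ± 104, SD, n = 4) and 809 and 689 in Sus-T without trauma (749 ± 84.9, SD, n = 2). With trauma it read 256, 212 and 213 in Res-T (227 ± 25.03, SD, n = 3) and 703, 1115, 516 and 771 in Sus-T (776 ± 250.1, SD, n = 4). Every Sus-T library was above every Res-T library, whatever the condition. The share of all genes with this pattern over both conditions was not computed. Within Res-T, the 3 libraries with trauma lay inside the range of the 4 without.

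With trauma, cortical Pdgfra was 3.29-fold higher in Sus-T, a log2 difference of 1.72 ± 0.28 (SE, limma adjusted p = 0.00168). It was 41st of 6080 genes by p, in a comparison that called 23% of all genes, 14% upward and 8.93% downward. It was called in each of the 7 fits that left out a library, with limma adjusted p-values from 0.0049 to 0.0148. Without overlap between groups were 40.7% of all genes.

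Without trauma, cortical Pdgfra differed by 1.24 ± 0.32 (SE), a 2.36-fold difference that limma did not call (adjusted p = 0.208). No gene was called in that comparison (0%), and 630 had an unadjusted p under 0.05, among which Pdgfra was 36th. The groups did not overlap for 14.9% of all genes. Trauma was accompanied by a difference of -0.48 ± 0.28 in Res-T (limma adjusted p = 0.421) and of 0.00 ± 0.32 in Sus-T (0.99986). The difference between these, 0.48 ± 0.43, was not called either (limma adjusted p = 0.835), and limma called no gene (0%) in these 3 comparisons, with 899, 91 and 371 genes at an unadjusted p under 0.05. The 95% interval of the Sus-T difference was -0.67 to 0.68, so changes within it were not detectable. For these trauma comparisons the groups did not overlap for 13.1% of all genes in Res-T and 8.03% in Sus-T, and Pdgfra overlapped in both.

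Set side by side, Pdgfra was higher in Sus-T in both regions, by 1.81 without and 0.72 with trauma in the amygdala and by 1.24 and 1.72 in the cortex. The call came without trauma in the amygdala and with trauma in the cortex. The regions were fitted separately, how they were scaled to each other is not given, and the difference between them was not tested.

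The other genes of each cell type were read from marker lists. In the amygdala without trauma, counts of list genes called stand beside 12.4% of all genes called higher in Sus-T and 15% lower. The astrocyte list had 24 of 29 genes with a row in the amygdala, among them Aqp4, Aldh1l1 and Gja1, but not Gfap or Sox9. Besides Slc1a2 and Mlc1, 11 of 22 were higher in Sus-T without trauma and none was lower, with a median log2 difference of 0.97 against -0.03 for all genes. Without Sus-T without trauma replicate 3, 3 of the 22 were called, and without Res-T without trauma replicate 2, 7 were. Cst3, a secreted protease inhibitor that microglia also make, differed by 2.14, Ndrg2 by 1.63 and the glycolytic enzyme Aldoc by 1.98, with limma adjusted p-values of 0.000284, 0.000526 and 0.00145. The whole list took 0.844% to 1.05% of a library in Res-T and 2.05% to 3.50% in Sus-T without trauma. It took 1.14% to 1.80% in Res-T and 1.58% to 2.85% in Sus-T with trauma.

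The microglia and macrophage list had 7 of 28 genes with a row, and P2ry12, Csf1r, Aif1 and Trem2 had none. Besides Tmem119, 5 of 6 were higher in Sus-T without trauma. None of the 6 was called without Sus-T replicate 3 or without Res-T replicate 2 of that condition, and 1 without replicate 1 of either group. The 5 genes included the Fc receptor chain Fcer1g (1.42, limma adjusted p = 0.0203), Olfml3 (1.65, 0.0247) and the complement gene C1qa (1.65, 0.0282). The sum of the list was small, 0.0235% to 0.0320% of a library in Res-T and 0.0485% to 0.0632% in Sus-T without trauma. With trauma the shares were 0.0303% to 0.0532% and 0.0200% to 0.0637%, which overlapped. No gene of this list had a row in the cortex.

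In the amygdala without trauma, 12.4% of all genes were called higher in Sus-T and 15% lower. The precursor list held genes called in both directions. The median log2 difference of its other 10 genes with a row in the amygdala was 0.96 against -0.03 for all genes, in the direction of Pdgfra. Of these, Cacng4 (1.71, limma adjusted p = 0.00285) and Lhfpl3 were higher in Sus-T without trauma, with 4 called higher under quantile normalization and 5 with equal totals. The transcription factors Sox10 (-2.08, limma adjusted p = 0.000926), Olig1 (-0.98, 0.00383) and Olig2, which are active throughout the oligodendrocyte lineage, were lower. Without Sus-T without trauma replicate 1, 4 were called higher and 1 lower, and without Sus-T replicate 3 or Res-T replicate 1 of that condition 1 was called higher and 3 lower. The proteoglycan gene Cspg4 and Gpr17 had no row. The list summed to 0.211% to 0.232% of a library in Res-T and to 0.230% and 0.413% in Sus-T without trauma.

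Genes of the later oligodendrocyte stages were lower where Enpp6 was lower. Of the other 16 newly formed oligodendrocyte genes, 7 were lower in Sus-T without trauma and none was higher, a count of 4 with equal totals and of 3 without Sus-T replicate 1 or Res-T replicate 2 of that condition. Nfasc, which also acts at nodes of axons, differed by -1.96 (limma adjusted p = 5.97e-05), Cnksr3 by -1.73 (0.00145) and Mpzl1 by -1.27 (0.00151). Of 28 myelinating oligodendrocyte genes, 25 were lower, led by Sept4 (-1.71), Plekhh1 (-2.26) and Gjc3 (-2.07), with a median of -1.81. The myelin list took 7.42% to 8.63% of a library in Res-T and 2.41% to 3.50% in Sus-T without trauma, and 5.58% to 7.62% and 4.80% to 6.21% with trauma.

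In the comparison of trauma effects, in which Enpp6 was called, 4.76% of all genes were called upward. Of the 28 myelin genes, 20 were called in that direction, with a median of 1.63, and 3 without Sus-T without trauma replicate 1. When the mean of the myelin genes was added to the model as a covariate, Pdgfra was the single member still called in the amygdala without trauma (4.13 ± 0.86, SE, limma adjusted p = 0.0408). Enpp6 then differed by -0.92 (limma adjusted p = 0.595), and Kdr turned to 2.02 (0.455). That model called 69 genes in all, and the myelin mean itself differed between the groups.

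The 2 vascular members went in opposite directions, and so did their lists in part. The endothelial list had 10 of 28 genes with a row, among them Pecam1, Flt1 and Vwf but not Cldn5, Cdh5, Tek or Tie1. Of all genes, 15% were called lower in Sus-T without trauma. Besides Kdr, 2 of 9 list genes were called there, the lactate transporter Slc16a1 (-1.06, limma adjusted p = 0.0011) and the glucose transporter Slc2a1 (-0.77, 0.0195), both lower. Only 1 was called with equal totals, and without either Sus-T library or Res-T replicate 2 of that condition. Pecam1 differed by -0.92 (limma adjusted p = 0.14). The list took 0.0494% to 0.0562% of a library in Res-T and 0.0412% to 0.0428% in Sus-T without trauma.

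The mural and fibroblast list had 8 of 28 genes with a row, without Col3a1, Lum, Rgs5 or Acta2. Besides Col1a2, the partner collagen chain Col1a1 was higher in Sus-T without trauma (1.90, limma adjusted p = 0.0347) and Mcam was lower (-2.21, 0.000189). These were the only other calls in the list, with 12.4% of all genes called higher and 15% lower. Col1a1 was not called without Sus-T replicate 1 or Res-T replicate 1 or 2 of that condition. The summed list was 0.0298% to 0.0421% of a library in Res-T without trauma and 0.0264% in both Sus-T libraries, so the sum was lower where Col1a2 was higher. The median log2 difference of the 7 other genes was 0.98 against -0.03 for all genes, in the direction of Col1a2. All 6 pyramidal neuron genes were higher in Sus-T without trauma, from Cux2 (0.95, limma adjusted p = 0.0105) to Camk2a (5.04, 4.26e-05). Their sum took 0.0202% to 0.0259% of a library in Res-T and 0.148% to 0.180% in Sus-T, and 4 of the 6 were called when either Sus-T library, or Res-T replicate 1 or 2, was left out. With the myelin covariate and the 7 members left aside, 2 astrocyte genes and 1 pyramidal neuron gene of these lists were called and none of the other lists. The part of these other markers in the differences of the 7 genes was not tested.

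**Figure D3:**
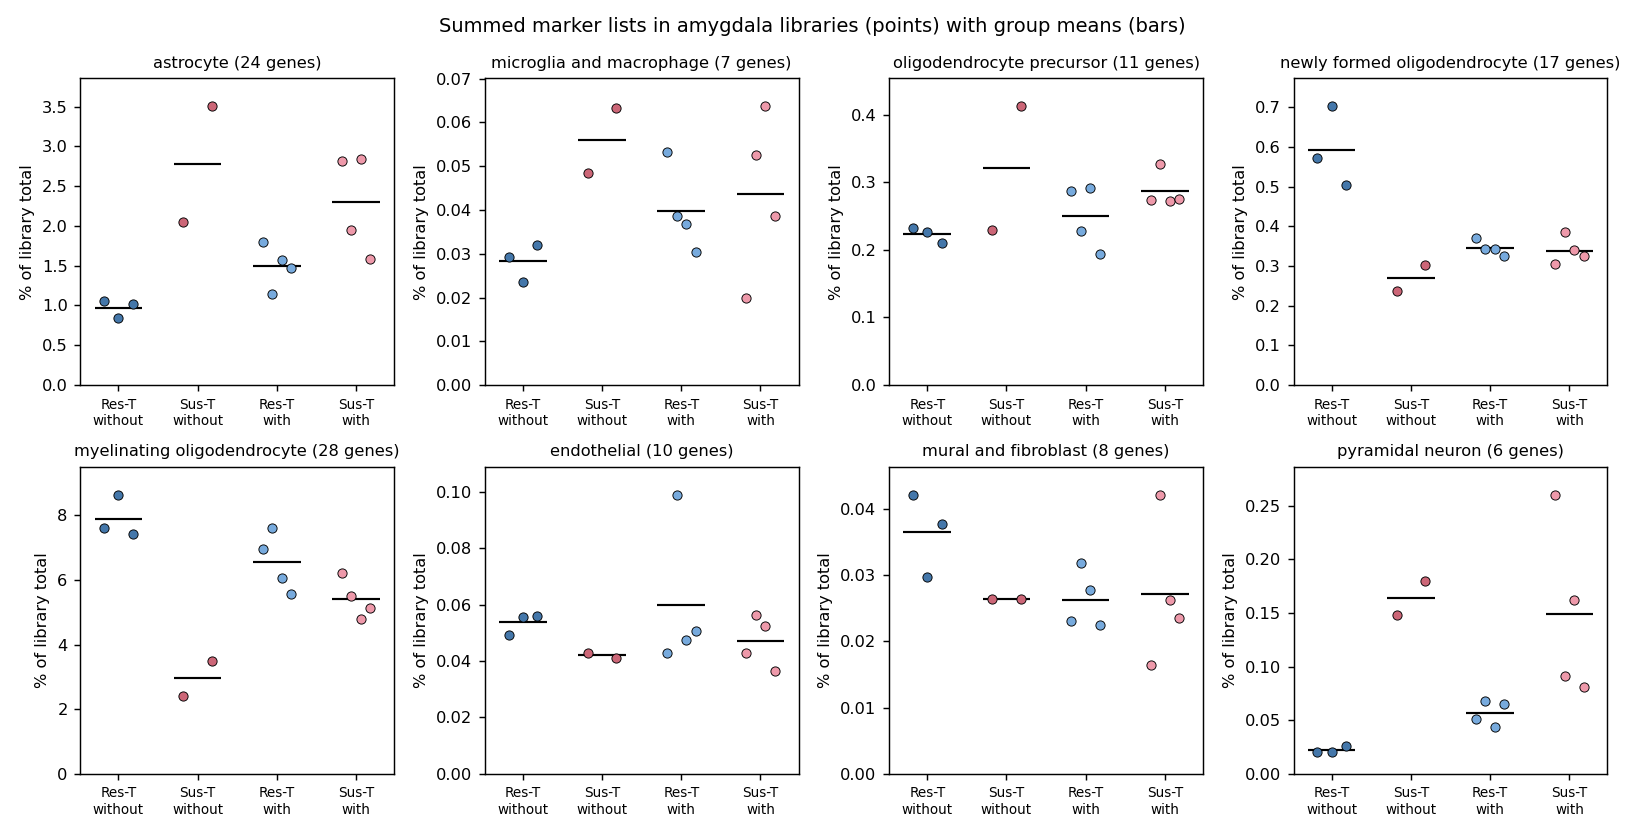
Summed values of 8 marker lists as percent of each amygdala library's total; each point is a library, each bar a group mean, and the axes start at 0. Without trauma the astrocyte, microglia and pyramidal neuron sums are higher in both Sus-T libraries than in the 3 Res-T libraries, the newly formed and myelinating oligodendrocyte, endothelial, and mural and fibroblast sums are lower, and the precursor sums overlap.

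In the cortex with trauma, where Pdgfra was called, 14% of all genes were called upward and 8.93% downward. Of the 11 other precursor genes with a row, 3 were also higher in Sus-T and none was lower. They were Matn4 (2.14), C1ql1 (2.67) and Lhfpl3 (1.34), with limma adjusted p-values of 0.00556, 0.00824 and 0.0373, and 5 were called with equal totals and 2 without some single libraries (Res-T with trauma replicate 1 or 3, Sus-T with trauma replicate 2 or 4). Olig1 and Ptprz1 were measured there and not called. The precursor list took 0.198% to 0.383% of a library in Res-T and 0.309% to 0.412% in Sus-T with trauma. Of 19 myelin genes, 13 were lower in Sus-T and none was higher, with a median of -1.21 against 0.15 for all genes, and between 6 and 15 were lower without 1 library, 6 without Res-T with trauma replicate 1 or replicate 3 and 7 without Sus-T with trauma replicate 3. Their sum was 6.30% to 8.62% of a library in Res-T and 3.10% to 5.17% in Sus-T. With the myelin mean as a covariate, cortical Pdgfra differed by 2.28 ± 0.38 (SE) and was no longer called (limma adjusted p = 0.0899), and neither was any other gene. Of 13 astrocyte genes 2 were higher, Apoe (1.09) and Cst3 (0.996), where 14% of all genes were called upward, and the median of the list was -0.04, which turned to 0.03 with equal totals and ran from -0.45 to 0.41 without 1 library. Without Res-T with trauma replicate 4, 1 of the 2 was called.

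**Figure D4:**
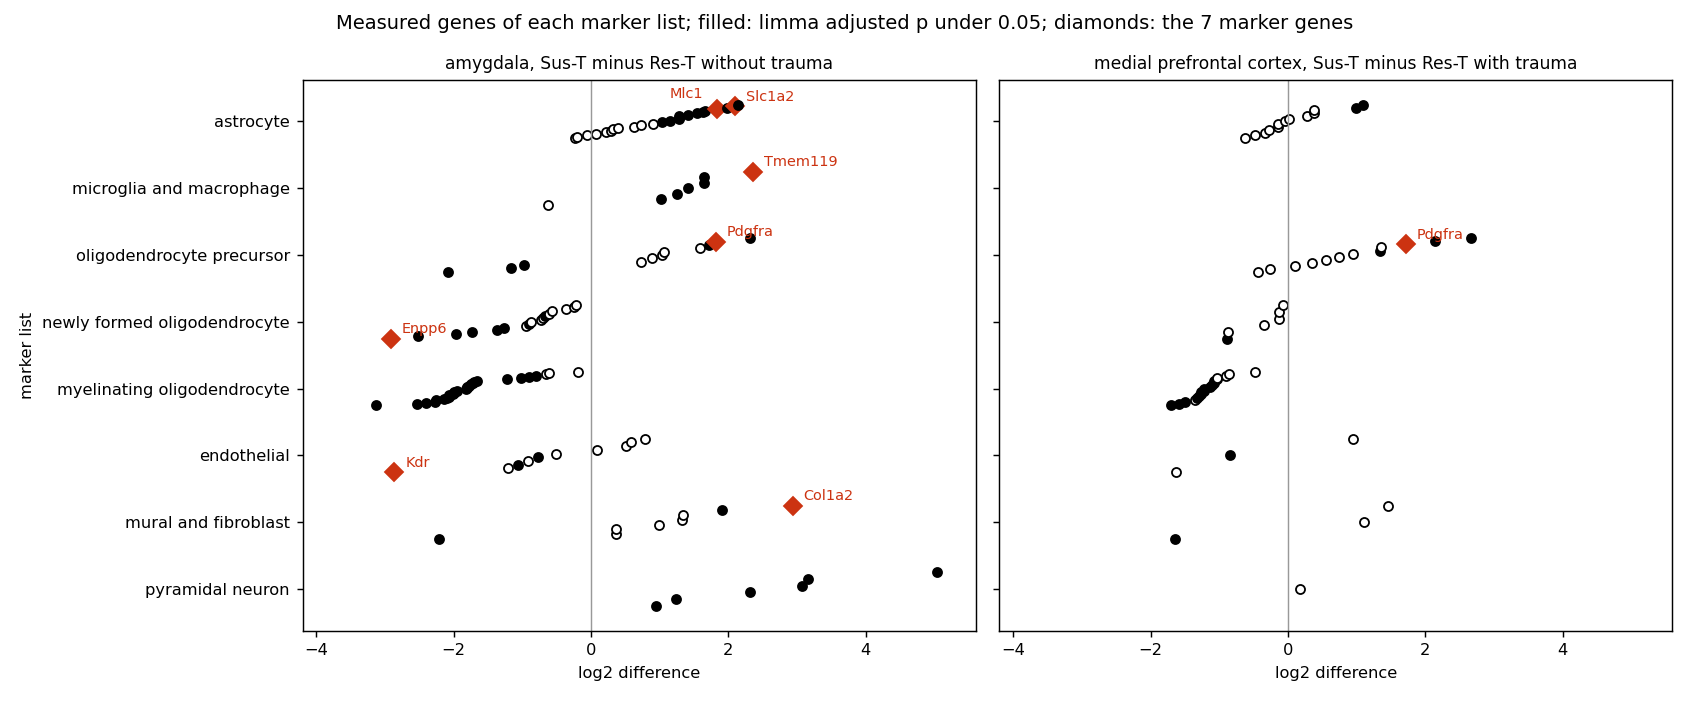
Log2 differences of each measured gene in 8 marker lists, Sus-T minus Res-T, in the amygdala without trauma (left) and the medial prefrontal cortex with trauma (right); filled symbols passed a limma adjusted p of 0.05, and diamonds are the 7 marker genes. Pdgfra lies to the right of 0 in both regions while the myelin genes lie to the left, and the endothelial and fibroblast members are the outermost points of their lists in the amygdala.

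For each member, the 3 genes with the most similar pattern over the 13 libraries of a region were found by Pearson's r of log2 values. These correlations describe libraries that share groups and scaling. Slc1a2 was most like Cxcl14 (0.985), Fam107a (0.985) and Fat3 (0.98). Mlc1 was most like Fads1 (0.963), Epas1 (0.962) and Dpy19l3 (0.962). Tmem119 was most like the collagen gene Col1a1 (0.908), then Pdzrn3 (0.891) and St6galnac4 (0.888). The collagen gene is of another cell type than the microglial member that it followed.

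Enpp6 had near neighbours in Unc5c (0.981), Gab1 (0.981) and Lcorl (0.976), and Kdr in Slc22a5 (0.965), Olfr351 (0.954) and Arsg (0.952). Col1a2 had weaker ones, Wipf2 (0.905), Mis12 (0.893) and Thra (0.888). In the amygdala Pdgfra was most like the ribosomal protein genes Rps10 (0.95) and Rpl14 (0.94) and Csmd1 (0.943). In the cortex it was most like the mitochondrial ribosomal protein gene Mrpl11 (0.962), the translation initiation factor gene Eif3k (0.952) and C1ql1 (0.927), a gene of the precursor list. None of the 7 members was among the 3 nearest genes of another.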

How the data were processed

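RNA of sorted cells went through a kit for very small inputs that removes ribosomal RNA, and was sequenced from both ends, per the labels' protocols. Reads were processed with bcl2fastq 2.20 and Salmon 1.2 on GRCm38.p6, per the submitters' processing notes. The deposited values are a signal in arbitrary units that the authors normalized by a method not given in the sources used here. Of 29 samples described, the submitters removed 3 (Sus-T without trauma replicate 2 in each region and cortical Res-T with trauma replicate 2), and 26 libraries in 8 groups were used. Values of a library were identical in each table that held it. On a logarithmic scale, once 1 is subtracted and each gene is centred, the libraries span 1 dimension fewer than expected in the amygdala and 2 fewer in the cortex, so p-values may be too low.

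Values were analysed as log2(value + 1). A model with 4 groups per region was fitted with limma 3.58.1 (R 4.3.3), with trend and robust moderation and 9 residual degrees of freedom, for 5 comparisons per region. P-values were adjusted by Benjamini-Hochberg over all genes of a comparison, with a threshold of 0.05. A mean of at least 1 was required, which removed no gene. The fitting was tested on simulated data. Coordinates and exon lengths came from GENCODE M21 and promoter windows of 250 bases from RefSeq.

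The members and marker lists were chosen with earlier results of these data known. Genes named are the 7 members, the 3 genes most like each by Pearson's r, up to 3 list genes with the smallest p in the amygdala without trauma, and defining markers that had no row; other list genes were named after their values were seen. Replicate numbers were not used to pair libraries. Alternatives were quantile normalization, equal library totals, a pseudocount of 10, a mean of at least 100, the groups of a comparison alone, a replicate block, no trend or robust option, a myelin-gene covariate and leaving out each library.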

Additional observations from a re-analysis of the deposited data

Results flagged for a closer look

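The trauma effect on 2 of the 7 genes differed between Sus-T and Res-T mice in the amygdala by a test of that difference in limma. That test called 6.74% of all genes, 4.76% upward and 1.98% downward. For Enpp6 the effect was 2.66 higher on the log2 scale in Sus-T (adjusted p = 0.00334), being -1.15 in Res-T and 1.51 in Sus-T. For Col1a2 the value was -2.72 (limma adjusted p = 0.0396), with effects of 1.39 in Res-T and -1.34 in Sus-T. Both tests rest on 2 Sus-T libraries without trauma. Col1a2 lost its call without some single libraries and with the replicate block, and the myelin covariate left neither gene called. In the 16 combinations of gene, region and group with 4 libraries, none had a single library far from the other 3 by Dixon's criterion.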

How the results depend on the processing

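The 7 calls in the amygdala without trauma were also made with quantile normalization, equal totals, a pseudocount of 10, the 2 groups alone, no trend or robust option and the replicate block; a mean of at least 100 left 5 genes tested, without Col1a2 and Kdr. The myelin covariate left 1 call there, and leaving out a library left 5 to 7. Calls among the members in the trauma comparison within Res-T fell from 2 to 0 with no trend or robust option and ran from 0 to 2 without 1 library. Within Sus-T they went from 0 to 1 with quantile normalization or a mean of at least 100, and ran from 0 to 2 without 1 library. For the difference of trauma effects they fell from 2 to 1 with a mean of at least 100 or no trend or robust option, to 0 with the covariate, and ran from 1 to 3 without 1 library. The replicate block moved this count from 2 to 1, as Col1a2 then differed by -2.85 (limma adjusted p = 0.0526), and moved the all-gene count there from 665 to 463; it changed no other call among the members. Same-numbered libraries of different groups did not deviate together (correlations over 16 pairs per region, amygdala -0.446 to 0.159, cortex -0.395 to 0.346), so the numbers do not show pairing across groups. In a group of 2 libraries the deviations mirror each other by construction. Whether libraries of the same group share an animal was not examined. In the cortex with trauma the covariate took the count from 1 to 0, and leaving out a library kept it at 1.

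Directions turned only for differences that had not been called, except that of Kdr without trauma in the amygdala, which the covariate turned to 2.02. With the covariate, Sus-T minus Res-T with trauma became 0.046 for Enpp6, -0.11 for Col1a2 and 0.52 for Kdr, and Kdr became 0.76 for trauma in Res-T, -0.74 for trauma in Sus-T and -1.50 for the difference of trauma effects. With the block, trauma in Sus-T became 0.046 for Slc1a2 and 0.063 for Mlc1, and -0.20 for cortical Pdgfra. Without 1 library, Col1a2 ran from -0.055 to 0.61 and Kdr from -0.45 to 0.18 for Sus-T minus Res-T with trauma. Trauma in Sus-T ran from -0.82 to 0.14 for Slc1a2, from -0.45 to 0.31 for Mlc1, from -0.71 to 0.47 for amygdala Pdgfra and from -0.19 to 0.18 for cortical Pdgfra.

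Counts over all genes moved more than the members. In the amygdala the 2706 genes called without trauma became 69 with the covariate and 1565 to 2096 without 1 library, lowest without Sus-T without trauma replicate 1. The 0 called with trauma became 2 with quantile normalization, a pseudocount of 10 or a mean of at least 100, 1 with equal totals, 10 with the block, 20 with the covariate and 0 to 12 without 1 library, highest without Res-T with trauma replicate 2. The 610 for trauma in Res-T became 339 with no trend or robust option and 101 to 708 without 1 library, lowest without Res-T without trauma replicate 1. The 3 for trauma in Sus-T became 28, 16, 18 and 43 with quantile normalization, equal totals, a pseudocount of 10 and a mean of at least 100, 1 with the covariate and 1 to 287 without 1 library, highest without Sus-T without trauma replicate 3. The 665 for the difference became 366 with no trend or robust option, 3 with the covariate and 59 to 810 without 1 library, lowest without Sus-T without trauma replicate 1. In the cortex the 1397 genes with trauma became 0 with the covariate and 624 to 1163 without 1 library, lowest without Res-T with trauma replicate 1. Where no cortical gene was called, leaving out a library gave up to 53 genes without trauma (Sus-T without trauma replicate 3 left out), up to 588 for trauma in Res-T and 12 for the difference (Res-T without trauma replicate 4 left out), and up to 3 for trauma in Sus-T. A mean of at least 100 gave 1 gene without trauma. Equal totals moved the median of all genes in the amygdala without trauma from -0.03 to 0.17 (log2). Causes of these changes were not tested. Read depth is unknown, so counting error could not be given.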
